A study of Mus musculus with 6 samples.

Results

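The genes described here encode the proteins of the small subunit of the cytosolic ribosome, in haematopoietic stem cells (HSCs) with and without *Rpl22*. They were taken by symbol, as Rps followed by a number with or without a closing a or x, plus *Rpsa* and *Fau*, and pseudogene rows were left out. The rule found 32 genes among the 34573 genes of the count table, and all 32 had enough reads to be tested among 14004 genes. HSCs were sorted by flow cytometry from adult mouse bone marrow as lineage-negative CD48-CD150+ cells in the words of the labels, while the study's text defines HSCs by Sca-1 and c-Kit as well, and polyA RNA was sequenced from 3 *Rpl22*-/- (knockout) and 3 *Rpl22*+/+ (wild-type) samples. The knockout is a germline one, present in every cell of the animal, and the study's methods describe young adult mice on a C57BL/6 background. The labels do not say whether a sample came from 1 mouse or several, so p-values measure the spread between these samples, which may in part be technical.

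The small subunit binds mRNA, scans it for the start codon and reads the codons against tRNA, while the large subunit, to which *Rpl22* belongs, forms the peptide bonds. The mRNAs of its proteins are among the most abundant in a cell, and most of them begin with a run of pyrimidines at the cap through which their translation is controlled together. HSCs keep protein synthesis low, and inherited mutation of certain small-subunit genes causes Diamond-Blackfan anaemia, a failure of red cell production. Polyadenylated RNA gives the level of each mRNA but not its translation or the amount of protein, and in bulk samples fewer cells of a type and less RNA per cell cannot be told apart.

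Reads counted on genes came to between 9321123 and 13385850 per library, with the lowest total in *Rpl22*+/+ replicate 3. The targeted gene, *Rpl22*, was counted 449, 527 and 546 times in *Rpl22*-/- against 6890, 7001 and 5031 times in *Rpl22*+/+ libraries, as the labels say. All 12 HSC markers were detected and their summed level was 3236 to 3586 CPM in *Rpl22*-/- and 3348 to 3383 CPM in *Rpl22*+/+ libraries, where CPM is the read count scaled to a common library size by edgeR's TMM factors. Of these 12 markers 1 rose and 1 fell. Levels of single genes below are the mean ± SD over the 3 libraries of a genotype. Of the 8 megakaryocyte markers tested 6 rose, with sums of 1043 to 1309 CPM in *Rpl22*-/- and 744 to 972 CPM in *Rpl22*+/+ libraries. Of the 9 neutrophil markers 2 rose, with sums of 100.1 to 225 CPM in *Rpl22*-/- and 66.9 to 106 CPM in *Rpl22*+/+ libraries, the highest in *Rpl22*-/- replicate 2. The 13 cycling markers summed to 2519 CPM in *Rpl22*-/- replicate 1, to 3361 and 3498 CPM in replicates 2 and 3, and to 2819 to 2929 CPM in *Rpl22*+/+ libraries. Of the 5 erythroid markers tested 1 fell. B cell, T cell, erythroid and macrophage markers summed to at most 45.3 CPM in any library, and the lymphoid markers *Ms4a1* and *Cd3e* had no read. The part of these markers in the results below was not tested.

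1 pair of sequences carries the result that most depends on how reads were assigned. *Rps27* encodes a zinc-binding protein of the small subunit and lies on the reverse strand of GRCm38 (mm10) at chr3:90212522-90213651. The table also holds *Gm9846*, named *Rps27rt* in the GENCODE annotation and given there as a protein-coding gene, on the reverse strand at chr9:114982366-114982739. The coding sequences of *Rps27* and *Gm9846* are both 255 bases long and differ at 0 positions, so the first sequence printed here stands for both, while *Rps27l*, the other paralog, is 76.1% identical to it. The 61 bases at which *Rps27* and *Rps27l* differ are in capitals.
Rps27 and Gm9846: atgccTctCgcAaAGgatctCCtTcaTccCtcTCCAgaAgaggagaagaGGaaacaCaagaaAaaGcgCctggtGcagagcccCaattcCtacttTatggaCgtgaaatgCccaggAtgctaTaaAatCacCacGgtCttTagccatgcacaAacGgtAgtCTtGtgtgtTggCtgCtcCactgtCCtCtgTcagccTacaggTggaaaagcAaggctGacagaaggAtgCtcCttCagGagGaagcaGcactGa
Rps27l: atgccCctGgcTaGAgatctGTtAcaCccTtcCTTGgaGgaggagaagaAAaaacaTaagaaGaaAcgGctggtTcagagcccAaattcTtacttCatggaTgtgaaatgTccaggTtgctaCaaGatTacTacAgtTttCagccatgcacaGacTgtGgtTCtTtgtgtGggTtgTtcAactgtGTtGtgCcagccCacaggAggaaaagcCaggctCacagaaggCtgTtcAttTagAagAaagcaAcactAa

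Beyond the coding sequence, *Gm9846* matched the *Rps27* transcript at 100% identity over 98.8% of its length. A read from this shared stretch cannot be assigned to 1 of the loci by its sequence, whereas a read from *Rps27l* can be told from either.

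The starts of the genes that changed are shown because pyrimidine runs at the start are a known feature of ribosomal protein mRNAs. The windows reach from 40 bases before to 10 bases from the annotated start (RefSeq, GRCm38.p6), on the gene's own strand, with runs of 6 or more C or T in capitals.
Rps24, start inside the gene as GENCODE draws it, chr14:24490713-24490762, forward strand: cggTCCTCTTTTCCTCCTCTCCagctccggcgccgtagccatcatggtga
Rps26, chr10:128626497-128626546, reverse strand: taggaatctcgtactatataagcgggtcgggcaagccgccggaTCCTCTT
Rps27, chr3:90213639-90213688, reverse strand: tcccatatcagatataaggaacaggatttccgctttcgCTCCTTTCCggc
Rps28, chr17:33824553-33824602, reverse strand: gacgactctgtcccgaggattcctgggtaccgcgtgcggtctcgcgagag

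Promoters were given for 24 of the member genes. Such a run occurred in 19 of the 28 windows of these genes, or 67.9%, against 45.9% of the 32851 promoter windows of all genes, counted on the gene's strand alone. A run counted wherever it lay in the window, most of which is before the annotated start. These are therefore not shares of mRNAs that begin with a run. *Rps24*, *Rps26* and *Rps27* had a run in this window and *Rps28* had none, which says only that these letters are not in it. *Rps24* has another annotated start, whose window at chr14:24490638-24490687 is not printed above. The longest run there was 9 bases, against 19 in the *Rps24* window printed.

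The 32 genes did not move together. In *Rpl22*-/- HSCs 17 lay above and 15 below their *Rpl22*+/+ level. The median of their log2 fold changes (*Rpl22*-/- over *Rpl22*+/+) was 0.02, beside −0.01 for all genes tested. 4 genes rose, with *Rps24*, *Rps26* and *Rps28* among them, and *Rps27* fell, as counted on its own locus. These 5 of 32 made up 15.6% of the small-subunit genes, while 5.57% of all genes tested passed the same test (edgeR's quasi-likelihood F test, p adjusted by Benjamini-Hochberg over all genes, below 0.05). In the upward direction 3.28% of all genes passed and in the downward direction 2.29%. All 3 *Rpl22*-/- libraries lay above or all below the 3 *Rpl22*+/+ libraries for 11 of the 32 genes, or 34.4%, against 26.9% of all genes tested, and 7 of the 11 were higher. Leaving out *Rpl22*-/- replicate 2, or any one of the *Rpl22*+/+ replicates 1, 2 and 3, left 0 of the 5 calls. In these fits 1.44% to 2.59% of all genes were called. Leaving out *Rpl22*-/- replicate 3 left *Rps26* alone, with 0.892% of all genes called. Leaving out *Rpl22*-/- replicate 1 gave 10 calls, 5 in each direction, with 12.1% of all genes called. In the fits with 0 calls, between 8 and 10 members had an unadjusted p below 0.05, and the same count over all genes is not given for them. In the reported fit 11 of the 32 members and 3122 of the 14004 genes tested were below it. DESeq2 called 6 members with all libraries, and 7.54% of all genes.

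**Figure D1:**
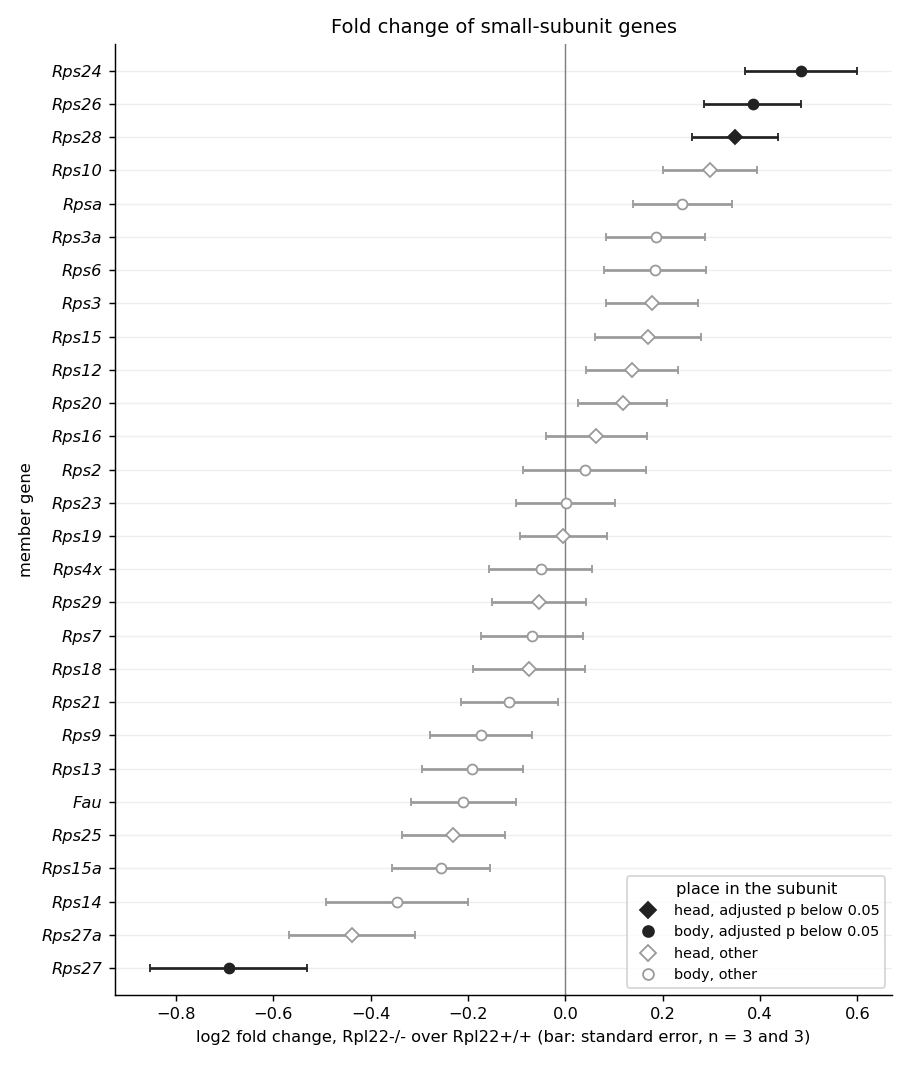
Log2 fold change of 28 of the 32 small-subunit genes, *Rpl22*-/- over *Rpl22*+/+ (horizontal axis, bars are standard errors of the edgeR fit, 3 libraries per genotype), with diamonds for proteins of the head and circles for proteins of the body. Filled points passed the test: *Rps24*, *Rps26* and *Rps28* to the right of 0 and *Rps27* to the left, while 24 of the genes shown did not pass.

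*Rps24* encodes a protein of the body that is needed for maturation of the ribosomal RNA of the small subunit, and it had the largest increase of the 32. It lies at chr14:24487125-24496959 on the forward strand and collected 27813, 31538 and 33104 reads in *Rpl22*-/- replicates 1 to 3 against 24369, 23295 and 14240 in *Rpl22*+/+ replicates 1 to 3. The replicates are in this order throughout. Its level was 2436 ± 239 CPM in *Rpl22*-/- and 1741 ± 225 CPM in *Rpl22*+/+ HSCs, with no overlap between the genotypes. This is a log2 fold change of 0.48 ± 0.115 (SE, edgeR adjusted p = 0.0248). *Rps24* was also the most abundant of the 32 per length, at 4331 CPM per kilobase of coding sequence in *Rpl22*+/+ HSCs, a level that includes reads on its untranslated parts. The lowest of its 6 levels was that of *Rpl22*+/+ replicate 3, and without that library the log2 fold change was 0.38.

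*Rps26*, whose protein touches the mRNA as it leaves the subunit, rose next. At its locus, chr10:128624534-128626747 on the reverse strand, 9618, 9793 and 8604 reads were counted in *Rpl22*-/- and 7845, 7002 and 5126 in *Rpl22*+/+ libraries. The level went from 566 ± 34.8 CPM in *Rpl22*+/+ to 739 ± 81.2 CPM in *Rpl22*-/- HSCs. Its log2 fold change was 0.39 ± 0.0995 (SE, edgeR adjusted p = 0.0345). All *Rpl22*-/- libraries were above all *Rpl22*+/+ libraries, with replicate 3 the lowest of the *Rpl22*-/- ones.

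*Rps28*, a small protein of the head beside the channel through which mRNA leaves, had 7161, 7183 and 8432 reads in *Rpl22*-/- and 6314, 5894 and 4348 in *Rpl22*+/+ libraries. Its gene lies at chr17:33819027-33824562 on the reverse strand and overlaps *Kank3* on the other strand, and the strand setting of the counting is not given in the sources used here. The level was 599 ± 41.2 CPM in *Rpl22*-/- and 470 ± 16.5 CPM in *Rpl22*+/+ HSCs. Its increase was 0.35 ± 0.0888 on the log2 scale (SE, edgeR adjusted p = 0.0332). Its highest library was *Rpl22*-/- replicate 3, which was not the highest for *Rps24* or *Rps26*.

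When each library's trend with gene length was removed, *Rps24* still passed (log2 fold change 0.52, edgeR adjusted p = 0.0212). Under the same alternative *Rps26* had an edgeR adjusted p of 0.0767 and *Rps28* of 0.0950. Over 22 alternatives *Rps24* passed in 17 (adjusted p 0.000101 to 0.123), *Rps26* in 15 (0.0026 to 0.142) and *Rps28* in 14 (0.0017 to 0.139), in edgeR, DESeq2 or limma-voom, always as an increase. Genes with less than 1000 bases of exon, 765 in all, had a median log2 fold change of 0.11. Their median in single *Rpl22*-/- libraries lay 0.07 to 0.15 above the *Rpl22*+/+ mean on the log2 scale. *Rps24*, *Rps26* and *Rps28*, with 6256, 1544 and 1719 bases of exon, are not among these short genes.

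*Rps27* had the largest decrease as counted. It had 1379, 874 and 730 reads in *Rpl22*-/- and 1651, 1636 and 1177 reads in *Rpl22*+/+ libraries, which is 78.6 ± 26.5 CPM against 127 ± 4.42 CPM. As counted, the log2 fold change was −0.69 ± 0.161 (SE, edgeR adjusted p = 0.0226). It was the lowest of the 32 per length, at 498 CPM per kilobase of coding sequence in *Rpl22*+/+ HSCs, a rank that holds for its own locus alone. The *Rpl22*-/- libraries all lay below the *Rpl22*+/+ libraries, and replicate 1 was nearest to them.

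*Gm9846*, with the same coding sequence, moved the other way and held most of the reads. It had 10168, 11958 and 13969 reads in *Rpl22*-/- and 7955, 7825 and 4752 in *Rpl22*+/+ libraries, a log2 fold change of 0.72 ± 0.120 (SE, edgeR adjusted p = 0.00474). Of the reads on both loci, *Rps27* took 11.9%, 6.81% and 4.97% in *Rpl22*-/- replicates 1 to 3 and 17.2%, 17.3% and 19.9% in *Rpl22*+/+ replicates 1 to 3. Over both loci the *Rpl22*+/+ level was 705 CPM, or 2764 CPM per kilobase of coding sequence, which would be number 5 from the top among the 32. The *Rpl22*-/- library with the most reads on *Gm9846* was thus the one with the fewest on *Rps27*.

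With the reads of its near-identical copies added, *Rps27* rose, with a log2 fold change of 0.54 ± 0.109 (SE, edgeR adjusted p = 0.0115), and 5 members were called, all of them higher. With copies of the coding sequence added, a setting chosen after the data were seen, the value was 0.55 (edgeR adjusted p = 0.0118). The direction for *Rps27* is therefore uncertain in these counts: it was lower on its own locus and higher over both loci. Among the 22 alternatives it passed in 16, of which 14 gave a decrease and these 2 the increase (adjusted p 4.47e-10 to 0.113 over all 22). No other member changed in this way when the reads counted on copies were added. Of the 32 genes 27 had a copy in the table, but outside *Rps27* the copies held at most 2.54% of a gene's reads and moved its log2 fold change by at most 0.04. Reads without a unique alignment, 7.49% to 8.23% of all counts per library, were on no gene. Their part in members and copies could not be checked. *Rps27l*, whose reads can be told apart, had 947, 731 and 577 reads in *Rpl22*-/- and 779, 707 and 555 in *Rpl22*+/+ libraries, a log2 fold change of 0.03 ± 0.139 (SE, edgeR adjusted p = 0.918).

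**Figure D2:**
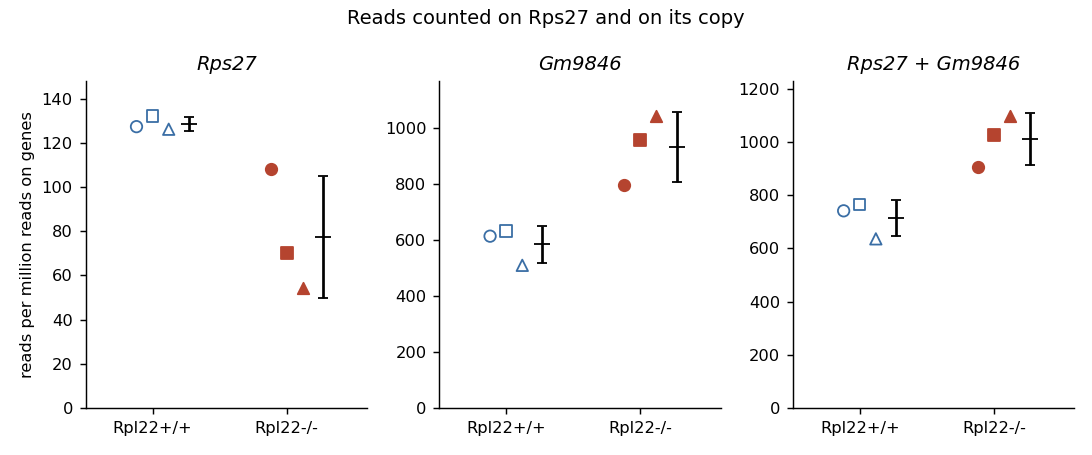
Reads counted on *Rps27*, on its copy *Gm9846* and on both together (vertical axes, reads scaled to the library's total on genes, from 0), for 3 *Rpl22*+/+ libraries (open symbols) and 3 *Rpl22*-/- libraries (filled), where circles, squares and triangles are replicates 1, 2 and 3 and bars are the mean and SD. *Rps27* was lower in each *Rpl22*-/- library, while *Gm9846* and the sum were higher in each.

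The remaining decreases did not pass the test. *Rps27a*, made as a fusion of ubiquitin with a protein of the head, had 9600, 7785 and 6236 reads in *Rpl22*-/- and 11219, 10165 and 8240 in *Rpl22*+/+ libraries. Its level was 623 ± 139 CPM in *Rpl22*-/- and 845 ± 25.3 CPM in *Rpl22*+/+ HSCs, without overlap, and the log2 fold change was −0.44 ± 0.129 (SE, edgeR adjusted p = 0.0581). In DESeq2 it passed, with an adjusted p of 0.0143, and over the 22 alternatives it passed in 8 (adjusted p 0.000547 to 0.179), always as a decrease. A gene on the other strand, *Clhc1*, overlaps it.

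*Rps14*, the gene whose loss marks a deletion form of myelodysplastic syndrome, had 10330, 8247 and 6190 reads in *Rpl22*-/- and 11099, 9487 and 8446 in *Rpl22*+/+ libraries. That is 654 ± 170 CPM against 831 ± 61.6 CPM, a log2 fold change of −0.35 ± 0.146 (SE, edgeR adjusted p = 0.173). The genotypes overlapped, since *Rpl22*-/- replicate 1 lay within the *Rpl22*+/+ range while replicate 3 was at 470 CPM. Without replicate 3 of the *Rpl22*-/- libraries the log2 fold change was −0.16, and without replicate 1 it was −0.52 and passed the test (edgeR adjusted p = 0.0170), as it did in 3 of the 22 alternatives (adjusted p 0.0123 to 0.470).

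*Rps15a*, a protein of the body with a counterpart in bacteria, had 10881, 9780 and 8881 reads in *Rpl22*-/- and 12329, 11782 and 8613 in *Rpl22*+/+ libraries. Its level was 779 ± 91.9 CPM in *Rpl22*-/- and 929.6 ± 29.0 CPM in *Rpl22*+/+ HSCs. Its log2 fold change was −0.26 ± 0.100 (SE, edgeR adjusted p = 0.146), although the 3 *Rpl22*-/- libraries were all below the 3 *Rpl22*+/+ ones.

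*Rps19*, the gene most often mutated in Diamond-Blackfan anaemia, was at nearly the same mean level in both genotypes. It had 11425, 10966 and 10983 reads in *Rpl22*-/- and 11596, 10450 and 8802 in *Rpl22*+/+ libraries, or 879 ± 40.4 CPM against 882 ± 39.3 CPM. The genotypes differed by −0.0042 ± 0.0898 on the log2 scale (SE, edgeR adjusted p = 0.985), and its sign changed with the processing.

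*Rps4x* and *Rps3a*, which follow *Rps24* in level per length at 3339 and 3013 CPM per kilobase of coding sequence in *Rpl22*+/+ HSCs, both missed the threshold. *Rps4x*, carried on the X chromosome, had 34458, 33116 and 29198 reads in *Rpl22*-/- and 35773, 32762 and 24574 in *Rpl22*+/+ libraries, or 2553 ± 293 CPM against 2645 ± 96.5 CPM. Its log2 fold change was −0.05 ± 0.106 (SE, edgeR adjusted p = 0.823). For *Rps3a* the counts were 31938, 34967 and 36471 in *Rpl22*-/- and 32843, 30135 and 21564 in *Rpl22*+/+ libraries, or 2723 ± 214 CPM against 2395 ± 141 CPM. The log2 fold change of *Rps3a* was 0.19 ± 0.102 (SE, edgeR adjusted p = 0.299). Both ranges overlapped between the genotypes.

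The other 21 genes lay between a log2 fold change of −0.23 for *Rps25* and 0.30 for *Rps10*, and none passed. *Rps10*, which the ubiquitin ligase of stalled ribosomes marks, was nearest to passing (edgeR adjusted p = 0.0797) at 734 ± 80.7 CPM in *Rpl22*-/- and 597 ± 18.6 CPM in *Rpl22*+/+ HSCs, with no overlap. *Rpsa*, also known as the laminin receptor, was at 0.24 and *Rps3*, which lines the channel where mRNA enters, at 0.18, each with all *Rpl22*-/- libraries above the *Rpl22*+/+ ones. *Rps6*, the substrate of S6 kinase, was at 0.18, *Rps15* at 0.17, *Rps12* at 0.14 and *Rps20* at 0.12 on the log2 scale. *Rps16* at 0.06, *Rps2* at 0.04 and *Rps23*, a protein of the decoding site, at 0.00046 were near 0. Those below 0 included *Rps29* at −0.05, *Rps7* at −0.07, *Rps18* at −0.08, *Rps21* at −0.12, *Rps9* at −0.17 and *Rps13* at −0.19. *Fau*, made as a fusion with a ubiquitin-like protein, was at −0.21 and *Rps25* at −0.23.

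The *Rpl22*-/- libraries differed more among themselves than the *Rpl22*+/+ libraries did. For 30 of the 32 genes the SD of the log2 CPM was larger in *Rpl22*-/- than in *Rpl22*+/+ libraries, against 62.2% of all genes tested, with a median SD of 0.172 in *Rpl22*-/- and 0.0721 in *Rpl22*+/+ libraries. Over all genes tested these medians were 0.155 and 0.120, so the members stood lower than all genes in *Rpl22*+/+ and slightly higher in *Rpl22*-/- libraries. The members and all genes were not matched for level in this comparison. Replicate 3 was the lowest of the 3 *Rpl22*-/- libraries for 26 of the 32 genes, against 29.6% of all genes tested. It was below the whole *Rpl22*+/+ range for 19 genes and above it for 8, and its median over the 32 genes was −0.18 on the log2 scale relative to the *Rpl22*+/+ mean. The same median was 0.08 in *Rpl22*-/- replicate 1 and 0.13 in *Rpl22*-/- replicate 2. Without replicate 3 of the *Rpl22*-/- libraries, 22 of the 32 genes were higher in *Rpl22*-/- HSCs and the median log2 fold change was 0.12.

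**Figure D3:**
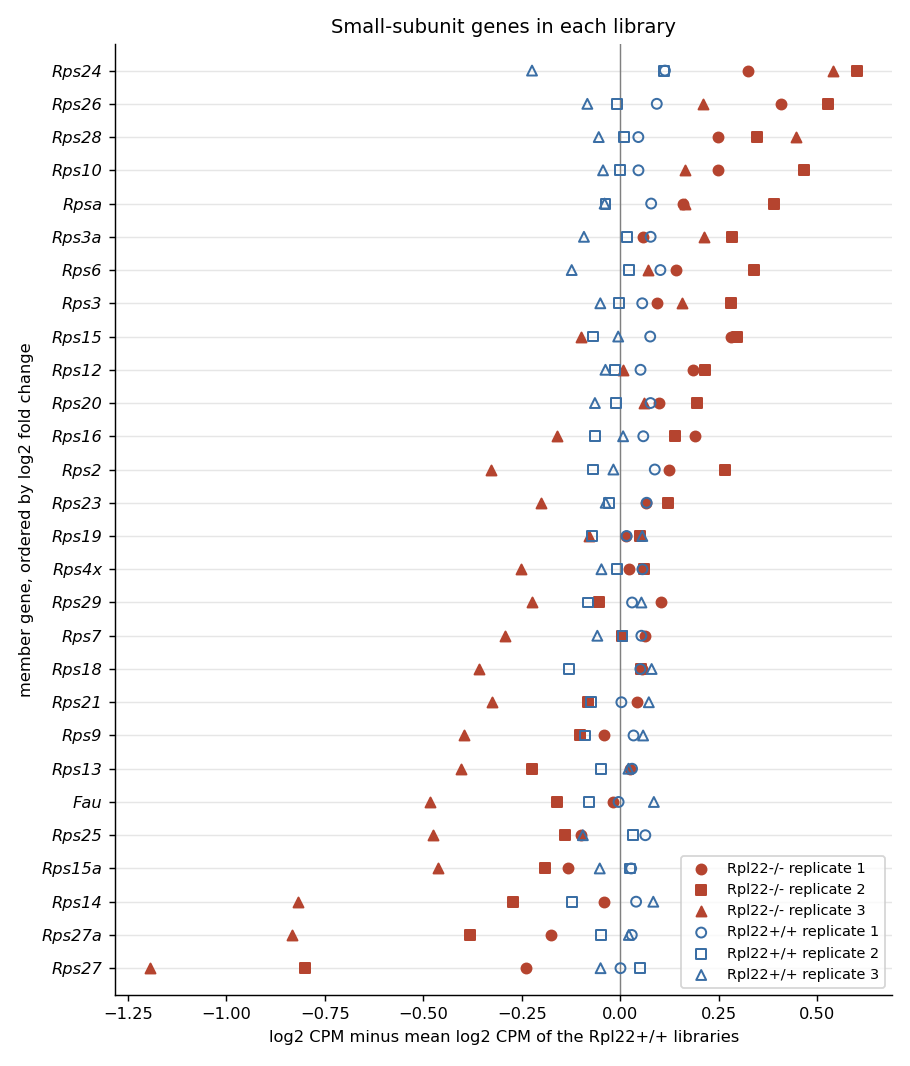
Level of 28 of the 32 small-subunit genes in each library, as log2 CPM minus the mean log2 CPM of the 3 *Rpl22*+/+ libraries (horizontal axis), with open symbols for *Rpl22*+/+ and filled symbols for *Rpl22*-/- libraries and a marker for each replicate. *Rpl22*-/- replicate 3 (filled triangles) is the lowest of the *Rpl22*-/- libraries for 23 of the genes shown, but the highest of them for *Rps28*.

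As a share of all reads on genes, the 32 genes together held 3.55%, 3.57% and 3.10% in *Rpl22*-/- replicates 1 to 3 and 3.44%, 3.26% and 3.29% in *Rpl22*+/+ replicates 1 to 3. The means were 3.41% ± 0.266 (SD, n = 3) and 3.33% ± 0.0969 (SD, n = 3), and the genotypes overlapped. The 46 large-subunit genes other than *Rpl22* held 4.21% to 4.79% in *Rpl22*-/- and 4.18% to 4.41% in *Rpl22*+/+ libraries. The reads on small-subunit genes divided by those on large-subunit genes came to 0.757, 0.747 and 0.736 in *Rpl22*-/- and 0.779, 0.779 and 0.777 in *Rpl22*+/+ libraries. This ratio was lower in all 3 *Rpl22*-/- libraries, and it was so with *Gm9846* counted as a small-subunit gene too, at 0.761 to 0.774 against 0.789 to 0.794, although copies of large-subunit genes were not added. No test was made of this sum over genes, and an exact permutation of 3 libraries against 3 cannot go below a two-sided p of 0.1.

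**Figure D4:**
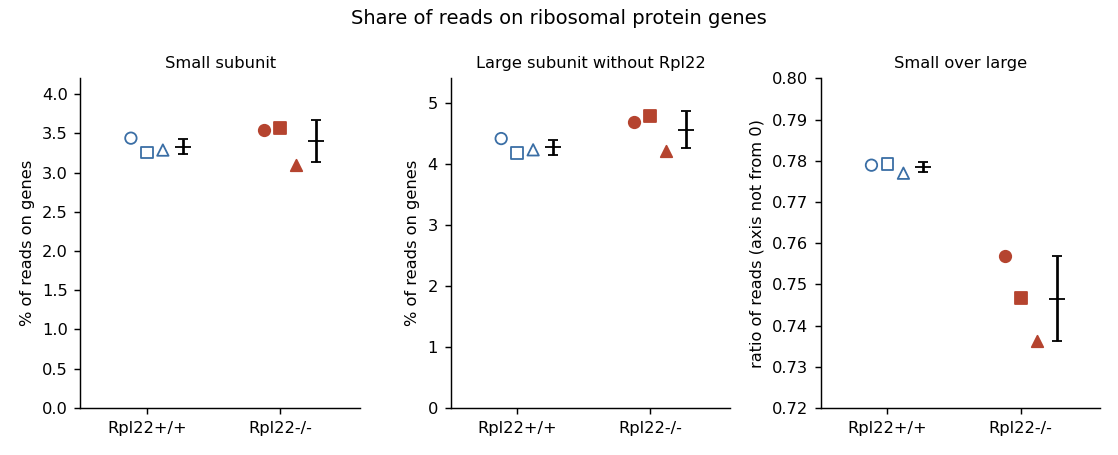
Share of reads on genes held by the 32 small-subunit genes and by 46 large-subunit genes without *Rpl22* (vertical axes from 0), and the ratio of the reads (vertical axis from 0.72), for 3 *Rpl22*+/+ libraries (open) and 3 *Rpl22*-/- libraries (filled), with the mean and SD. The shares overlap between genotypes, while the ratio is 0.736 to 0.757 in *Rpl22*-/- and 0.777 to 0.779 in *Rpl22*+/+ libraries.

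Among the 46 large-subunit genes 5 rose and 1 fell, with 31 higher and a median log2 fold change of 0.17, beside the 0.02 of the small-subunit genes. Among the 29 mitochondrial small-subunit genes, which serve the separate ribosome of the mitochondrion, 2 rose, and the median was 0.19. These are 13.0% of the large-subunit and 6.90% of the mitochondrial genes, beside 5.57% of all genes tested. DESeq2 called 15 and 6 of them, with 7.54% of all genes, and limma-voom 7 and 1, with 5.3% of all genes. These medians come from the same 6 libraries, and the difference between the groups was not tested.

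Within the small subunit, the 14 head genes had a median log2 fold change of 0.09 with 2 called higher, *Rps28* among them, and the 18 body genes had −0.03 with *Rps24* and *Rps26* called higher and *Rps27* lower. With near-identical copies added the body genes had a median of 0.02, and their 3 called genes were all higher. The 15 genes with a counterpart in every kind of ribosome included 0 called ones in the reported edgeR fit, DESeq2 or limma-voom, with 3 at an unadjusted p below 0.05 in edgeR, while all 5 called genes were among the 17 specific to eukaryotes and archaea. DESeq2, which did not call *Rps27*, called *Rps10* and *Rps27a* of the 17 in addition. Among the 15, *Rps14* was called in 3 of the 22 alternatives and *Rps13* and *Rps15a* in 1 each, without *Rpl22*-/- replicate 1. Among the 11 linked to Diamond-Blackfan anaemia in people 5 were called, and 6 were higher and 5 lower (median 0.12), or 7 higher and 4 lower with near-identical copies added (median 0.30), where all 5 called genes were higher. These lists were drawn up with results of these data known, and the overlaps of counts were not tested. The 10 genes that carry a small nucleolar RNA in an intron had a median log2 fold change of 0.13, with 9 higher and 0 called in edgeR (1 at an unadjusted p below 0.05), and neither DESeq2 nor limma-voom called any of them. The other 22 had a median of −0.06. Beside all these counts, 5.57% of all genes tested were called in edgeR, a share at which 10 or 15 genes may well hold 0. An unadjusted p below 0.05 in edgeR was found for 3122 of the 14004 genes tested.

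Across the 32 genes, the log2 fold change had a Pearson correlation of 0.46 with the log2 level in *Rpl22*+/+ HSCs, 0.17 with coding length and 0.11 with the GC content of the coding sequence. These are descriptions over genes that share the same libraries, and the level enters both measures in the first of them. *Rps27*, as counted on its own locus, was the lowest of the 32 in level and in log2 fold change, at 127 CPM and −0.69. The first correlation was not computed without *Rps27* or with the reads of its copies added.

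Genes that build or watch over the small subunit were taken from lists. Of 24 assembly genes tested 18 were higher, with a median log2 fold change of 0.10. Only 1 rose, or 4.17%, beside 5.57% of all genes tested. The one that rose was *Wbscr22* (*Bud23*), the methyltransferase that modifies the ribosomal RNA of the small subunit, with 691, 891 and 837 reads in *Rpl22*-/- and 640, 603 and 464 in *Rpl22*+/+ libraries (0.39 ± 0.110 on the log2 scale, edgeR adjusted p = 0.0479). *Gnb2l1* (*Rack1*), a scaffold protein bound to the head, had 19744, 21688 and 21930 reads in *Rpl22*-/- and 17796, 15625 and 12747 in *Rpl22*+/+ libraries, and missed the threshold (0.34 ± 0.0971 on the log2 scale, edgeR adjusted p = 0.0501). *Rrp7a*, a processome protein, had 1357, 1410 and 1378 reads against 1268, 1203 and 818 (0.23 ± 0.0884 on the log2 scale, edgeR adjusted p = 0.135). Among 7 genes of ribosome quality control and S6 kinase signalling and 4 that bind ribosomal protein mRNAs, 0 passed in edgeR, DESeq2 or limma-voom. In edgeR 1 of each list had an unadjusted p below 0.05, as did 3122 of the 14004 genes tested. The paralog *Rps4y2* (*Rps4l*), outside the rule, had 206, 249 and 204 reads against 187, 160 and 139 (0.33 ± 0.152 on the log2 scale, edgeR adjusted p = 0.220).

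**Figure D5:**
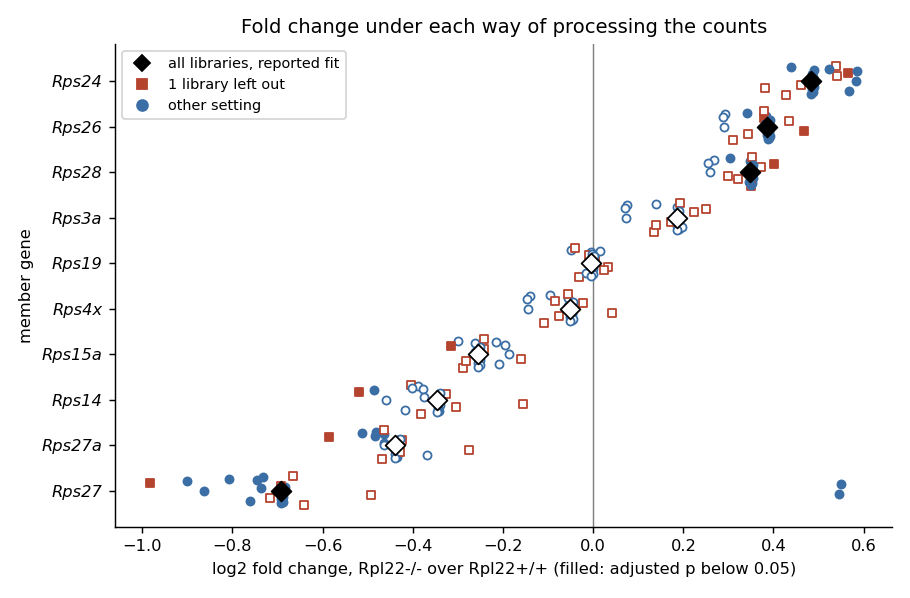
Log2 fold change of 10 small-subunit genes (*Rpl22*-/- over *Rpl22*+/+, horizontal axis) in the reported fit with all libraries (diamonds), with 1 library left out (squares) and under each other way of processing the counts (circles), filled where the adjusted p was below 0.05. *Rps24*, *Rps26* and *Rps28* stay to the right of 0 throughout, and *Rps27* lies between −0.98 and −0.49 except where the reads of its copies were added, at 0.54 and 0.55.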

How the data were processed

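RNA-seq was done on 6 libraries of sorted HSCs, 3 per genotype, grouped by their labels. The authors aligned the reads to mm10 with TopHat2 2.1.1 and deposited raw counts of reads per gene from HTSeq, with no normalization. The annotation and strand setting are not given in the sources used here. HTSeq's 5 total lines, 58.6% to 60.9% of all counts, were kept out. Precision rests on 3 libraries per genotype with 9321123 to 13385850 reads on genes.

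The counts of all genes were fitted in edgeR 4.0.16 (R 4.3.3) with TMM factors, filterByExpr at a minimum count of 10, the quasi-likelihood test by genotype and Benjamini-Hochberg adjustment over 14004 genes. Standard errors were taken as |log2 fold change| divided by √F. The members and lists were chosen with earlier results of these data known. Full values are given for members with an adjusted p below 0.05, the 4 largest changes each way, the 3 highest levels per length, *Rps14* and *Rps19*, and outside the rule for *Rpl22*, *Gm9846*, paralogs and 3 assembly genes. For 4 of the 32 genes single values are not reported here, although all counts, medians and sums over the genes include them. *Gm9846* was added after its counts were seen. Positions came from GENCODE M21, where 29042 symbols matched directly, 1880 by an older symbol and 3651 not at all. Copies were found with BLAST 2.17.0 at 95% identity or more over at least 80% of the member's transcript or coding sequence.

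Alternatives were other scaling factors, DESeq2 1.42.0, limma-voom (limma 3.58.1), other filters, each library left out, a replicate term, removal of length and GC trends (lowess, span 0.3), and reads of pseudogene rows or copies added. The edgeR test was checked on simulated counts, where the changes were larger than those of the members and the genotypes had the same spread. The check does not cover smaller changes or unequal spread. Python 3.11.15, pandas 2.3.3, numpy 2.4.6 and matplotlib 3.10.9 were used for the rest.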

Additional observations from a re-analysis of the deposited data

How the results depend on the processing

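The number of small-subunit genes called, 5 in the reported fit, was 8 with no filter on low counts, 3 with the length trend removed and 3 with the length and GC trends removed together, and over fits with 1 library left out it ran from 0 to 10. The number of all genes called, 780, was 1422 with no filter, 507 with the GC trend removed and 505 with both trends removed, and from 127 to 1720 with 1 library left out. Fewer libraries enter a fit that leaves one out, and the cause of the other shifts was not tested. The fit with both trends removed and no replicate term was added after the data were seen. The median log2 fold change of the members stayed between −0.08 and 0.12 and was below 0 with library size alone (−0.02), with the length trend removed (−0.04), with both trends removed (−0.08, with or without a replicate block) and without *Rpl22*-/- replicate 1 (−0.0041), *Rpl22*-/- replicate 2 (−0.04) or *Rpl22*+/+ replicate 2 (−0.0047). The difference in summed share, 0.0787 percentage points, became 0.183 with the TMM-scaled library size and −0.0050 to 0.232 with 1 library left out. *Rps27* reversed to 0.54 with near-identical copies added and 0.55 with copies of the coding sequence added. *Rps4x* reversed without *Rpl22*-/- replicate 3, and with 1 library left out it ran from −0.11 to 0.042. *Rps19* reversed to 0.00078 with relative log expression factors, 0.00080 in DESeq2, 3.3e-05 with no filter, 0.014 with the length trend removed and 0.0015 with copies of the coding sequence added, and with 1 library left out it ran from −0.039 to 0.033, above 0 without *Rpl22*-/- replicate 3 or *Rpl22*+/+ replicate 1 or 3. DESeq2 did not call *Rps27* (adjusted p = 0.113). With a replicate block 6 members were called, the 5 and *Rps27a*, and 904 genes in all. With both trends removed as well 547 genes and 5 members were called, but only 2 of these were among the reported 5. *Rps24* was then higher, and *Rps14*, *Rps27*, *Rps27a* and *Fau* were lower. Both trends removed without a block left *Rps24* higher and *Rps27* and *Fau* lower. Samples with the same number correlated at −0.10, 0.05 and 0.04, and not each sample correlated best with its own number. Pairing by number was thus not seen, but 3 libraries per genotype are too few to exclude it.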

Other observations

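Rows of small-subunit pseudogenes, left out of the rule, were at low counts. The table holds 88 of them for 19 members, with 0.126% as many reads as the members themselves, and 13 could be tested. Of these 11 were higher in *Rpl22*-/- HSCs, and 2 rose, or 15.4%, beside 5.57% of all genes tested. *Rps16-ps2* had 94, 139 and 137 reads in *Rpl22*-/- and 43, 48 and 38 in *Rpl22*+/+ libraries (1.40 ± 0.226 on the log2 scale, edgeR adjusted p = 0.00441). *Rps6-ps4* had 70, 140 and 83 reads against 51, 27 and 23 (1.44 ± 0.316 on the log2 scale, edgeR adjusted p = 0.0179). Reads of such rows share sequence with the parent genes, so their counts are uncertain. *Rps16* and *Rps6* themselves had log2 fold changes of 0.06 and 0.18 and did not pass.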
